A study of Mus musculus with 8 samples.

Results

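Klf2, Klf4, Nos3, Edn1, Ednrb, Piezo1 and Timp3 are 7 genes tied to the way endothelial cells sense blood flow. They were taken by name from the 31053 genes of a single-cell count matrix of mouse liver, of which 17384 had at least 1 count. Livers came from C57BL/6 mice that the labels call male, bought at 6 to 8 weeks of age and then given a control chow diet (4 mice) or an HFHC diet (4 mice) for 20 to 32 weeks. The design text reads HFHC as rich in fat and cholesterol, whereas the titles of the HFHC samples have calorie in its place. No transgene or gene deletion is named, and the labels tie each 10x Genomics library to 1 animal. Non-parenchymal cells were freed of dead cells, stained for CD45, CD31, CD146 and podoplanin and sorted, and the cells passed on are called stromal. A unique molecular identifier (UMI) marks 1 captured transcript. Levels are given as UMIs of the gene per 1000000 UMIs (CPM) after adding up the cells of a library.

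Endothelial cells turn the drag of flowing blood into transcription. The channel Piezo1 opens under membrane tension, and steady shear acts through the kinases MEK5 and ERK5 and MEF2 factors to raise the transcription factors KLF2 and KLF4. These factors raise Nos3, the endothelial nitric oxide synthase, and repress Edn1, the precursor of the constrictor peptide endothelin 1. Ednrb encodes the endothelin B receptor, which on endothelial cells clears endothelin and triggers nitric oxide release, and Timp3 encodes a matrix-bound inhibitor of metalloproteinases. Liver sinusoids are slow-flow capillaries with a fenestrated wall, while portal and central veins and arteries carry faster flow.

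The 3192 kept cells were unevenly spread, with 55, 875, 574 and 94 in control libraries 1 to 4 and 47, 74, 857 and 616 in HFHC libraries 1 to 4. Libraries held 170448 to 2309209 UMIs, with a median of 1364 to 5928 per cell. Cell barcodes recurred between 5 libraries (control 1 and 2, HFHC 1 to 3), 33 to 65 of them in each of the 10 pairs, against 0 to 4 in the other 18 pairs, and a shared barcode was kept only where it had most UMIs. The library labelled control 4 is called male, but 67 of its 94 cells (71.3%) held Xist and 0 held a Y-linked transcript, whereas the other 7 libraries held no Xist and had Y-linked transcripts in 18.0% to 53.2% of cells. Cells were placed in gates by marker genes, none of which is 1 of the 7 genes described. The endothelial gate took 34.5, 10.2, 96.5 and 79.8% of control libraries 1 to 4, and 6.38, 0, 1.17 and 96.9% of HFHC libraries 1 to 4. It held 1212 sinusoidal cells (19, 65, 539 and 38 in the controls, 3, 0, 4 and 544 in the HFHC libraries), 68 vascular cells and 32 lymphatic cells, the last all from control 4. A further 35 endothelial cells got no subgate, because lists tied or too few of their markers were detected. All 10 sinusoidal markers, among them Stab2 and Clec4g, were detected in each sinusoidal gate of at least 10 cells; since these markers chose the cells, their presence is not an independent check. Among sinusoidal gates of at least 10 cells, HFHC is represented by 1 library.

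Klf2 and Klf4 were higher in vascular than in sinusoidal endothelial cells of the same library. This comparison used control 2 (18 vascular and 65 sinusoidal cells) and HFHC 4 (34 and 544 cells), with the library as a block, so that each animal was set against itself. Klf2 stood at 2770 CPM in vascular and 960 CPM in sinusoidal cells of control 2, and at 1056 and 269 CPM in HFHC 4. The log2 difference was 1.68 (SE 0.28, edgeR quasi-likelihood test, adjusted p = 1.19e-06). For Klf4 the corresponding levels were 438 and 115 CPM in control 2, and 83.3 and 28.0 CPM in HFHC 4, a log2 difference of 1.74 (SE 0.42, edgeR adjusted p = 0.00129). Both libraries moved the same way, and the gap between the 2 libraries within a gate was about as large as that between the gates. With only 2 libraries, the SE and p of this fit lean on spread pooled over all genes. They measure little of the spread among mice. Of the 1969 genes tested, 5.54% were called higher in vascular cells and 11% in either direction. Of the 5 genes of interest that passed the filter on low counts, 4 were called higher, and Nos3 and Piezo1 did not pass it.

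The pair Edn1 and Ednrb, ligand and receptor, were also higher in vascular cells, and their levels there were close in the 2 libraries. Edn1 stood at 704 CPM in vascular and 324 CPM in sinusoidal cells of control 2, and at 722 and 74.6 CPM in HFHC 4 (log2 difference 2.18, SE 0.41, edgeR adjusted p = 0.00213). Ednrb stood at 735 and 223 CPM in control 2, and at 708 and 88.0 CPM in HFHC 4 (log2 difference 2.36, SE 0.30, edgeR adjusted p = 1.97e-09). Edn1 was thus higher in the same gate as Klf2 and Klf4, and whether these factors act on it here was not tested. Between HFHC 4 and control 2, vascular Edn1 had a ratio of 1.03 and Ednrb of 0.963, whereas vascular Klf2 had a ratio of 0.381 (exact 95% interval 0.287 to 0.501) and Klf4 of 0.190. Such intervals cover counting error only, not differences between mice. Timp3 was not called (log2 difference -0.02, SE 0.30, edgeR adjusted p = 0.980), and its vascular to sinusoidal ratio was 0.670 (0.468 to 0.943) in control 2 and 1.59 (1.12 to 2.19) in HFHC 4. Nos3 had 1 vascular count in control 2 and 4 in HFHC 4, and Piezo1 3 and 0, too few to show a difference at this depth.

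Libraries with fewer vascular cells varied around these values. Klf2 had a vascular to sinusoidal ratio of 3.09 in control 4 (4 vascular cells), 2.02 in HFHC 3 (5 cells) and 0.595 (0.192 to 1.40) in control 3, where 7 vascular cells held 5 Klf2 counts. Edn1 had ratios of 25.4 in control 4, 36.1 in control 3 and 0.605 (0.0939 to 3.11) in HFHC 3. Ednrb had ratios of 2.71 (0.258 to 16.6) in control 4, 48.2 (11.1 to 209) in control 3 and 0.504 (0.111 to 1.88) in HFHC 3, so both genes of the pair lay below 1 in HFHC 3, with intervals that included 1. The calls also leaned on the library block: without it the edgeR adjusted p was 0.557 for Klf2, 0.665 for Klf4 and 0.418 for Edn1, and Ednrb alone stayed past 0.05. Klf4 was not called by DESeq2 (adjusted p = 0.326), without a filter on low counts (0.0709) or with classes from clusters (0.0655), and Edn1 was not called when cells needed at least 500 genes (0.0593). With classes from clusters the log2 differences were 1.07 for Klf2, 1.07 for Klf4, 2.68 for Edn1 and 4.61 for Ednrb.

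**Figure D1:**
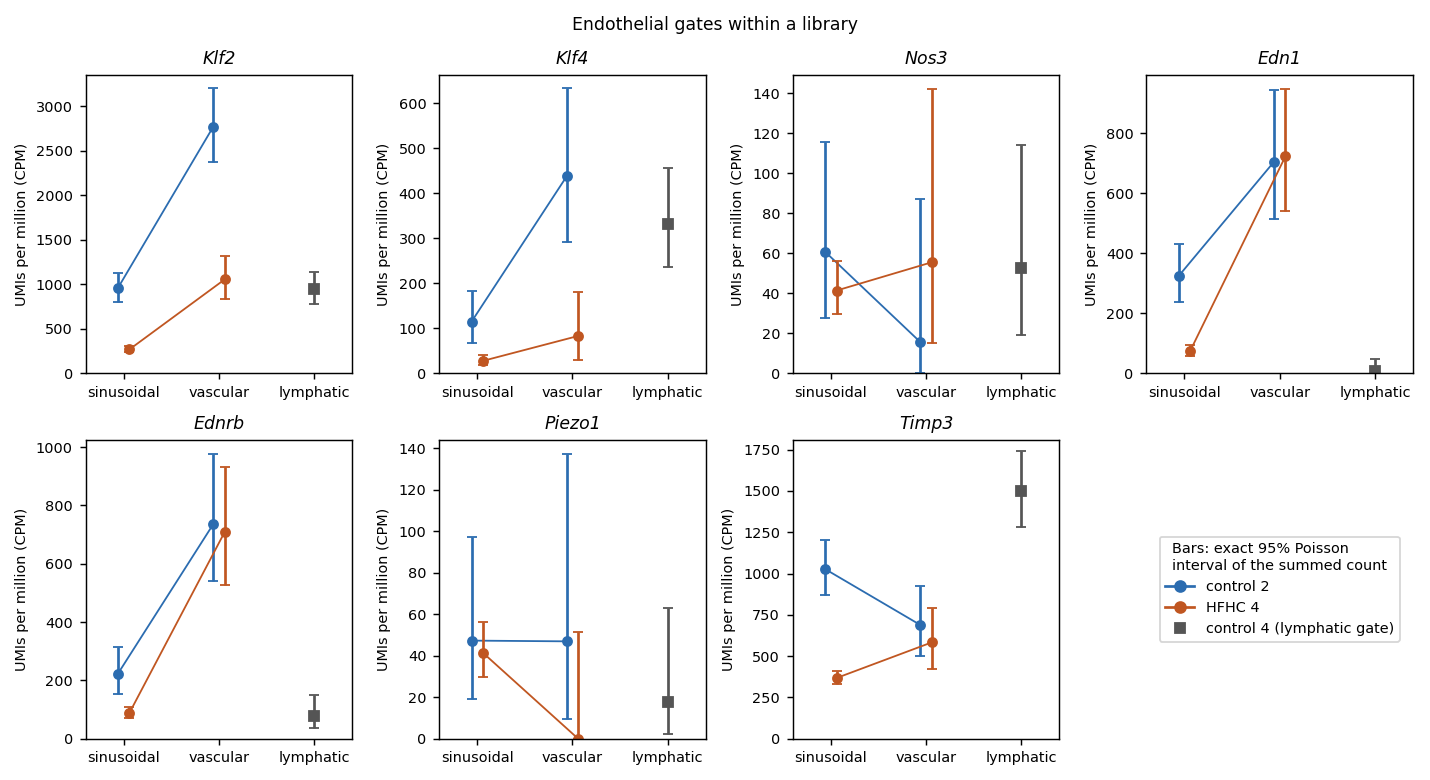
Level (CPM, linear axes from 0) of each gene in sinusoidal and vascular cells of control 2 and HFHC 4, joined within a library, and in lymphatic cells of control 4; bars are exact 95% Poisson intervals. Klf2, Klf4, Edn1 and Ednrb lines slope upward in both libraries, while the Timp3 and Nos3 lines slope in opposite directions.

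Genes upstream and downstream of KLF2 did not follow 1 direction between these gates. Of 11 tested genes of shear signalling, 1 rose and 3 fell in vascular cells: Heg1, a cardiovascular receptor, rose by 1.77 on the log2 scale (edgeR adjusted p = 2.79e-06), while the VEGF receptors Kdr (-2.91, 4.24e-11) and Flt4 (-2.39, 3.59e-05) were lower. Of 12 tested flow-induced targets, Cav1 (2.47) of caveolae and Thbd (1.38), the anticoagulant thrombomodulin, rose and Nostrin (-1.57), which traffics the nitric oxide synthase, fell. Of 5 tested genes of the TIMP and metalloproteinase list, Timp2 rose (3.73, adjusted p = 0.000968). Of 7 tested genes linked to disturbed flow, Bmp4 (2.69), Cyr61 (3.05) and Nfkbia (0.93) rose. Ece1, which cuts the endothelin precursor to its active form, differed by 0.46 (adjusted p = 0.464). The median log2 difference was -0.19 for shear signalling, 0.30 for flow-induced targets and 0.93 for disturbed flow, beside -0.04 over all tested genes. Immediate early genes, which rise within minutes of cell handling, moved the same way as Klf2: of 9 tested, 5 were called higher and 0 lower (median 0.98), led by Dusp1 (1.57), Ier2 (1.51) and Ier3 (1.33). Their summed level was 1723 CPM in sinusoidal and 3865 CPM in vascular cells of control 2, and 1236 and 2653 CPM in HFHC 4, and their part in the Klf2 and Klf4 difference was not tested. Hepatocyte markers (10 tested) gave 0 calls, and of 7 mesothelial markers only Gpm6a was present in the vascular gate of these libraries (log2 difference 2.35, called).

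The start regions of 3 genes are shown because the factors named above are known to act at such sequences. Promoter windows came from RefSeq on GRCm38.p6, and 6 of the 7 genes had one; Nos3 did not. In Klf2, capitals mark the single match to the MEF2 consensus, 118 to 109 bases before the RefSeq start (chr8:72318812-72319062, plus strand, upstream region and first bases of exon 1). In Edn1, capitals mark the letters GGGTG, the reverse complement of the CACCC box that Krüppel-like factors bind, and TTATCT, the reverse complement of AGATAA, bound by GATA factors (chr13:42301226-42301505, plus strand, upstream region and first bases of exon 1). In Ednrb, capitals mark CACCC (chr14:103843672-103843951, minus strand, just upstream of the shorter transcripts and within the first intron of the longest in GENCODE vM21).
Klf2: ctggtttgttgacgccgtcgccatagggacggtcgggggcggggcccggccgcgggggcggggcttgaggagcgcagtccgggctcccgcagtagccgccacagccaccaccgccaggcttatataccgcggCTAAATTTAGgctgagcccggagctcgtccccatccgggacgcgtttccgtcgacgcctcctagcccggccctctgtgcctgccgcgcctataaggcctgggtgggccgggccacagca
Edn1: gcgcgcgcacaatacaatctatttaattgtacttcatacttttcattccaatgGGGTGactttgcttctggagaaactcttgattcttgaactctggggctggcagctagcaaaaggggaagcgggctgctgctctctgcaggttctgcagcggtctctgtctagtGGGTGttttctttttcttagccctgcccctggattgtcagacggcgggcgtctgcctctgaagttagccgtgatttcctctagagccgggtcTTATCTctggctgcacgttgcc
Ednrb: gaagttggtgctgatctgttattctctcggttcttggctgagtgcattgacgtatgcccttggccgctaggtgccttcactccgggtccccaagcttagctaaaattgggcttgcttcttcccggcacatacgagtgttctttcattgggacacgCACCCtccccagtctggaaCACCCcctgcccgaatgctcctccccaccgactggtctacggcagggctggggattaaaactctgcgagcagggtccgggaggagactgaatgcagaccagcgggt
Searched on both strands, the MEF2 consensus occurred in 1.77% of 32851 RefSeq windows of 280 bases (27025 genes), and among the windows of these genes in Klf2 alone. CACCC occurred in 55.4% of windows, so its 2 matches each in Edn1 and Ednrb are common letters, and AGATAA in 10.7%. In the same windows CACCC had 3 matches in Timp3, 1 each in Klf2 and Piezo1 and 0 in Klf4. A match is a description of the letters and not evidence that a factor binds there. On mm10 the genes lie at chr8:72319033-72321656 (Klf2, plus strand), chr4:55527143-55532466 (Klf4, minus), chr5:24364810-24384474 (Nos3, plus), chr13:42301476-42307990 (Edn1, plus), chr14:103814625-103844402 (Ednrb, minus), chr8:122481698-122551329 (Piezo1, minus) and chr10:86300372-86349506 (Timp3, plus).

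Added up over the libraries, most Ednrb transcripts of the sinusoidal gate came from few cells that also carried vascular markers. A clustering made without the 7 genes put 105 of the 1212 sinusoidal-gate cells (8.66%) in clusters led by vascular markers. This division was added after the data were seen, and its values are a description without a test. The vascular clusters held 55 of the 68 vascular-gate cells, fewer than their 105 sinusoidal-gate cells. Those 105 cells held 99 of the 136 Ednrb counts (72.8%) and 64 of the 140 Edn1 counts (45.7%), but 17.5% of Klf2, 14.3% of Klf4, 15.3% of Nos3, 13% of Piezo1 and 19.7% of Timp3 counts. In control 2, 17 of 65 cells held 31 of 33 Ednrb counts; in control 3, 11 of 539 cells held 5 of 5; in HFHC 4, 72 of 544 cells held 58 of 85. Control 4 differed, with 0 of its 5 Ednrb and 0 of its 4 Edn1 counts in the single cell that fell in a vascular cluster. The same 105 cells carried both marker lists, with a summed 7528 CPM of vascular and 8157 CPM of sinusoidal markers, against 2258 and 16155 CPM in the 1066 cells of sinusoidal clusters. Their periportal marker sum was above that of the sinusoidal clusters in each of the 3 libraries with at least 10 such cells: 2601 against 618 CPM in control 2, 2987 against 1032 CPM in control 3 and 2948 against 1081 CPM in HFHC 4. Their pericentral marker sum did not keep 1 direction. It was 2434 against 2536 CPM in control 2, 155 against 1286 CPM in control 3 and 757 against 546 CPM in HFHC 4. Their hepatocyte marker sum did not keep 1 direction either. It was 4265 against 2934 CPM in control 2, 155 against 265 CPM in control 3 and 238 against 193 CPM in HFHC 4. Whether they are single cells of an intermediate kind or droplets with 2 cells was not tested.

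Within the cells of sinusoidal clusters, Klf2 stood at 901 CPM in control 2, 666 CPM in control 4, 519 CPM in control 3 and 225 CPM in HFHC 4, the order of these 4 libraries in the whole gate. In control 1, with 4 such cells, it had 0 counts. Ednrb had 0 counts in control 2 and in control 3, 66.6 CPM in control 4 (5 counts in 3 of 37 cells) and 34.1 CPM in HFHC 4 (27 counts in 22 cells). Edn1 had 189 CPM in control 2 from 18 counts in 2 cells, 2.68 CPM in control 3, 53.3 CPM in control 4 from 4 counts in 1 cell and 51.7 CPM in HFHC 4 (41 counts in 29 cells). A single sinusoidal-gate cell of control 2 held 17 of that gate's 48 Edn1 counts, so the Edn1 level of control 2 rests on very few cells.

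**Figure D2:**
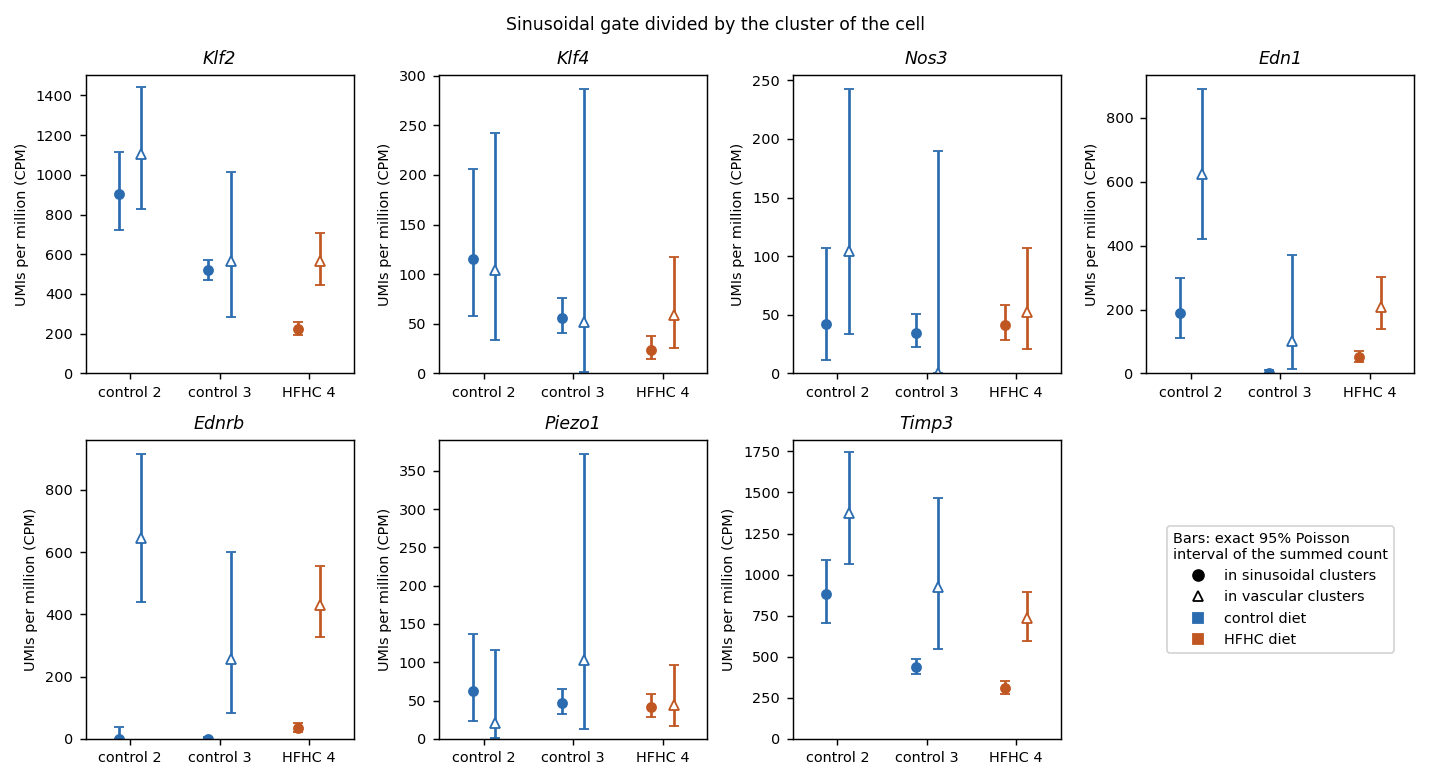
Level (CPM, linear axes from 0) of each gene in sinusoidal-gate cells divided by whether their cluster was led by sinusoidal markers (filled circles) or vascular markers (open triangles), in control 2, control 3 and HFHC 4; bars are exact 95% Poisson intervals. For Ednrb the triangles stand at 257 to 645 CPM and the circles at 0 to 34.1 CPM.

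Klf2 was present in the sinusoidal gate at 704, 960, 511 and 733 CPM in control libraries 1 to 4 (mean 727 ± 184, SD, n = 4) and at 269 CPM (260 counts, interval 238 to 304) in HFHC 4. HFHC 4 lay below all 4 controls, as it did for 17.2% of the 3955 genes tested. The value of control 1 is the least secure in cell type: 13 of its 19 gate cells fell in clusters led by neither sinusoidal nor vascular markers, and they held 30 of its 36 Klf2 and 6 of its 7 Nos3 counts. The log2 difference was -1.29 (SE 0.44) and was not called over all genes (edgeR adjusted p = 0.285), although the unadjusted p from that fit was 0.00361 and DESeq2 called it (-1.33, adjusted p = 0.0427). Of the 7 genes, edgeR called 0 in this gate, where 0.354% of genes were called. Over 17 alternatives the Klf2 difference ran from -1.46 to -0.93. Leaving out control 1 gave -1.25 (edgeR adjusted p = 0.530), leaving out control 4, whose sex label goes against its transcripts, gave -1.26, and the 3 libraries that do not share barcodes gave -0.96. With 1 HFHC library the SE holds no spread among HFHC mice, so diet and library cannot be told apart.

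The share of sinusoidal cells with a Klf2 UMI showed the same order at equal depth for the 2 large libraries. It was 42.5% of cells in control 3 and 28.3% in HFHC 4, and with each cell thinned to 1000 UMIs 36.1% and 20.1%. In hepatocytes, which should hold little Klf2, it was 1.88% at a median of 1448 UMIs per cell, against 1601 in the sinusoidal gate. These hepatocytes came from control 2 (596 cells) and HFHC 3 (410 cells) apart from 5, and control 3 and HFHC 4 had 0, so no such background was measured in the 2 libraries compared. The HFHC 4 to control 3 ratio of Klf2 levels was 0.527 (0.449 to 0.617).

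Klf4 and Timp3 were also below most controls in HFHC 4, without passing the test. Klf4 stood at 117, 115, 54.3 and 25.7 CPM in the controls and 28.0 CPM in HFHC 4 (log2 difference -1.27, SE 0.74), with control 4 resting on 2 counts and lying below HFHC 4. In control 1, all 6 Klf4 counts and 23 of 33 Timp3 counts lay in the 13 cells of clusters led by neither sinusoidal nor vascular markers. Timp3 stood at 646, 1027, 443 and 849 CPM in the controls (mean 741 ± 253, SD, n = 4) and 368 CPM in HFHC 4 (-0.86, SE 0.43, edgeR adjusted p = 0.909), below all 4 controls. Nos3 stood at 137, 60.8, 32.8 and 38.6 CPM in the controls and 41.4 CPM in HFHC 4 (-0.33, SE 0.84, and 0.15 without control 1), inside the control range. Piezo1 stood at 39.1, 47.3, 49.2 and 77.2 CPM and 41.4 CPM (-0.20, SE 0.87), also inside it. The Nos3 range reaches 137 CPM through control 1, where 6 of 7 counts lay in the 13 cells of other clusters. Whether Nos3 follows Klf2 in these cells was not tested.

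Edn1 and Ednrb varied more among control libraries than between the diets. Edn1 had 0, 48, 4 and 4 counts in control libraries 1 to 4 (0, 324, 5.05 and 51.4 CPM) and 72 counts (74.6 CPM) in HFHC 4. Ednrb had 0, 33, 5 and 5 counts (0, 223, 6.31 and 64.3 CPM) and 85 counts (88.0 CPM) in HFHC 4. The 0 counts in the 19 cells of control 1 allow up to 58.7 CPM. The log2 differences were -0.29 (SE 2.5) and 0.38 (SE 2.10), and without control 2 they were 2.78 (edgeR adjusted p = 0.617) and 2.65 (adjusted p = 0.585), so control 2 decides the direction for Edn1. Against control 3, the other library with over 500 sinusoidal cells, HFHC 4 had a ratio of 14.8 (5.52 to 55.6) for Edn1 and 13.9 (5.75 to 44.0) for Ednrb. In these 2 libraries 2.04% and 13.2% of sinusoidal-gate cells fell in the vascular clusters described above, and the part of that share in the ratios was not tested.

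**Figure D3:**
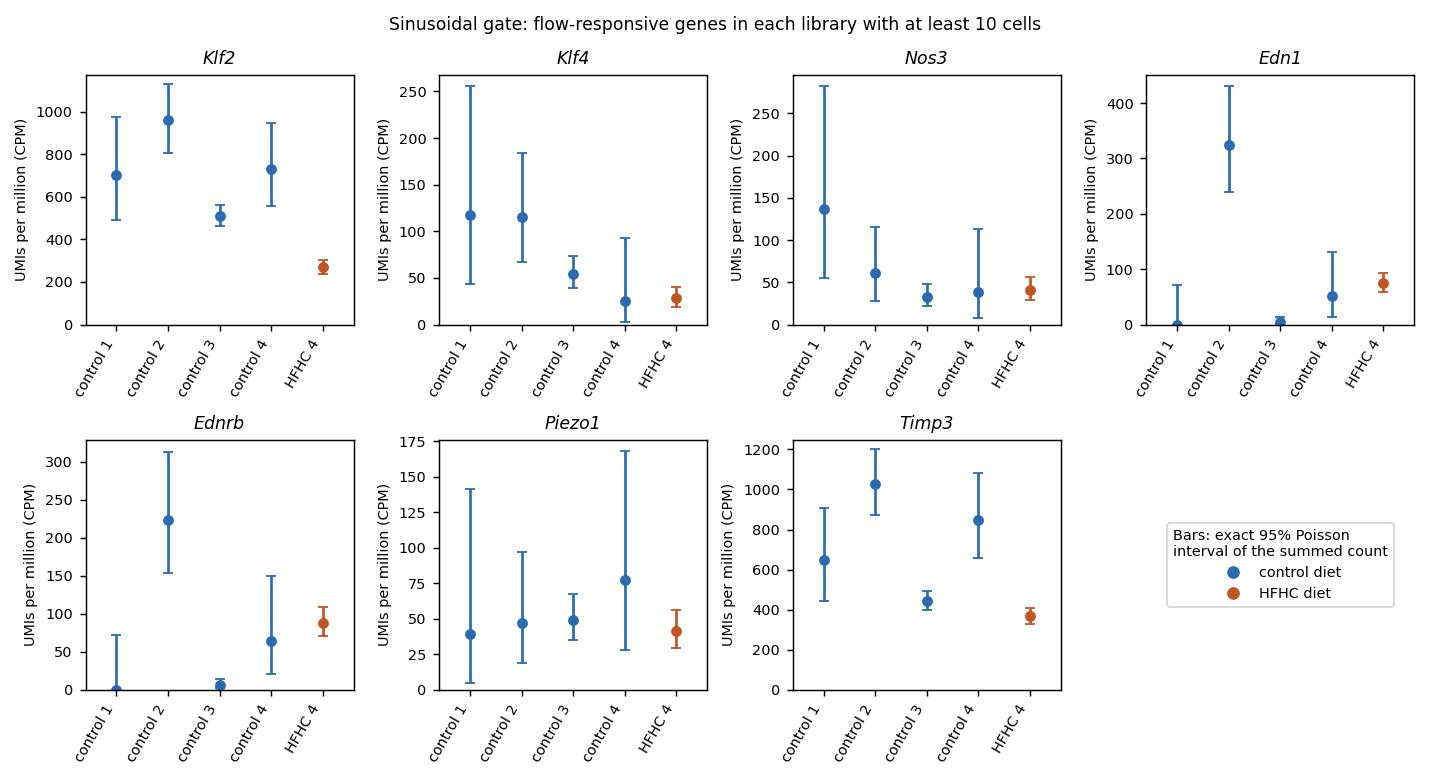
Level (CPM, linear axes from 0) of each gene in the sinusoidal gate of the 5 libraries with at least 10 such cells, control in blue and HFHC in orange; bars are exact 95% Poisson intervals. Klf2 and Timp3 in HFHC 4 (269 and 368 CPM) lie below all 4 controls, and control 2 stands apart for Edn1 at 324 CPM.

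Transcripts of other cells and handling genes differed between the same libraries. Summed hepatocyte markers stood at 743, 3372, 261 and 669 CPM in the sinusoidal gate of the controls and 194 CPM in HFHC 4; 12 were tested, all with negative values (median -2.99), and 1 was called. Stellate markers, of cells that lie behind the endothelium in the perisinusoidal space, summed to 880, 338, 24.0 and 51.4 CPM in the controls and 1.04 CPM in HFHC 4, where Lrat, Des and Pdgfrb were at 0. Immediate early genes summed to 3052, 1723, 976 and 1248 CPM and 1236 CPM, with 0 of 14 called (median -0.35). The part of these in the Klf2 and Timp3 values was not tested. Of the flow lists 0 genes were called: flow-induced targets had 13 of 15 negative values (median -0.65, beside -0.06 over all tested genes), with Gja4, a gap junction protein, at -1.50 (adjusted p = 0.364), Ass1, which recycles arginine for nitric oxide synthesis, at -2.38 and Thbd at -0.99. Shear signalling had 9 of 17 negative values (median -0.00159), the nitric oxide pathway 7 of 13 (median -0.08), the TIMP list 5 of 7 (median -0.28) with Timp2 at -3.43 (adjusted p = 0.324), and disturbed flow 2 of 7 (median 0.42) with Ctgf, a matrix-associated growth factor, at 1.52.

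Sinusoidal cells of HFHC 4 fell into 2 sets that differed in Klf2. Of its 544 sinusoidal cells, 190 had a UMI of Esm1, Kcnj8, Abcc9 or Kcne3, taken here as a capillary marker list, against 1, 3, 16 and 0 cells of control libraries 1 to 4. The marked cells held a median of 2112 UMIs and the others 1376.5, and the part of depth in the ratios below was not tested. Klf2 stood at 148 CPM in the 190 marked cells and 365 CPM in the 354 others (ratio 0.405, 0.300 to 0.540). Marked cells also had less Klf4 (ratio 0.287), Edn1 (0.594, 0.345 to 0.993), Ednrb (0.169, 0.0777 to 0.328) and Timp3 (0.606, 0.481 to 0.760), while the interval of Nos3 (0.681, 0.329 to 1.35) and Piezo1 (1.40, 0.715 to 2.75) included 1. The vascular clusters described above lay mostly outside the marked set: in HFHC 4 the capillary markers summed to 149 CPM in its 72 vascular-cluster cells and 823 CPM in its 460 sinusoidal-cluster cells, while Klf2 stood at 564 and 225 CPM. The part of these vascular-cluster cells, which held 58 of the 85 Ednrb counts, in the ratios was not tested. In control 3 the 16 marked cells held 4 Klf2 counts (ratio 0.300, 0.0814 to 0.775). These are comparisons of cells within 1 library and carry no test between mice. With marked cells left out of every library, the diet difference of Klf2 was -0.93 (SE 0.43, edgeR adjusted p = 0.9995), and the 365 CPM of the unmarked HFHC 4 cells stayed below the 523 CPM of those of control 3.

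The order of Klf2 along the sinusoid differed between libraries and settings. Cells with pericentral markers and no periportal one were set against the reverse in control 2 (13 and 12 cells), control 3 (127 and 104) and HFHC 4 (81 and 215). Of 2291 genes tested, 1.48% were called, and of the 2 genes of interest tested 0 were: Klf2 differed by 0.13 (SE 0.23, edgeR adjusted p = 0.968) and Timp3 by -0.40 (SE 0.21, edgeR adjusted p = 0.695). The pericentral to periportal ratio of Klf2 was 0.336 (0.148 to 0.693) in control 2, 1.41 (1.02 to 1.97) in control 3 and 1.34 (0.922 to 1.94) in HFHC 4, so control 2 went the other way. Without control 2 the Klf2 difference was 0.47 (edgeR adjusted p = 0.622) and without control 3 it was -0.27 (edgeR adjusted p = 0.999). With classes from clusters, which left control 3 and HFHC 4, it was 0.89 (edgeR adjusted p = 0.0134) and was called. Timp3 had ratios of 0.465 in control 2, 1.27 in control 3 and 0.581 (0.402 to 0.822) in HFHC 4. Ednrb lay on the periportal side in both libraries that had enough counts, with 0 pericentral against 19 periportal counts in control 2 and 4 against 62 in HFHC 4 (ratio 0.173, 0.0458 to 0.467). It did not pass the filter on low counts in the fit over 3 libraries, and was called lower in pericentral cells without that filter (-3.23, edgeR adjusted p = 0.000172) or without control 3 (-3.25, edgeR adjusted p = 0.000294). Vascular markers moved with it: they summed to 796 CPM in pericentral and 11360 CPM in periportal cells of control 2, and to 1919 and 3527 CPM in HFHC 4, and their part in the Ednrb ratio was not tested.

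Taking all endothelial cells together added HFHC 3 with 10 cells, and 0 of the 7 genes were called, where 0.048% of 4170 genes were. Klf2 stood at 704, 1487, 506 and 937 CPM in the controls and at 819 CPM in HFHC 3 and 321 CPM in HFHC 4 (log2 difference -0.87, SE 0.48), so the diets overlapped. Timp3 stood at 646, 904, 444 and 1197 CPM in the controls and 468 and 393 CPM in the HFHC libraries (-0.96, SE 0.42, edgeR adjusted p = 0.9999). Klf4 differed by -1.50 (SE 0.77), Edn1 by 0.31 (SE 1.79), Ednrb by 0.58 (SE 1.58), Piezo1 by -0.04 (SE 0.57) and Nos3 by -0.02 (SE 0.66). Without control 2 the differences of Edn1 and Ednrb were 2.28 (edgeR adjusted p = 0.9998) and 2.54 (edgeR adjusted p = 0.635). Fitted on the libraries that share barcodes, the Klf2 difference was -0.58; on the others it was -1.06, and without control 2 it was -0.49.

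Summed over all kept cells, the only comparison with 4 libraries per diet, the Klf2 level was lower in each HFHC library than in each control library. The nearest were HFHC 2 at 372 CPM and control 2 at 400 CPM, a gap not tested against counting error. All 74 cells of HFHC 2 lay outside the endothelial gate. It stood at 639, 400, 493 and 762 CPM in the controls (mean 574 ± 159, SD, n = 4) and at 358, 372, 124 and 319 CPM in the HFHC libraries (mean 293 ± 115, SD, n = 4). Of 6666 genes tested, 0.105% had every HFHC library below every control library and 0.54% the reverse. By edgeR the log2 difference was -0.96 (SE 0.39) and was not called (unadjusted p from the fit 0.0348, adjusted p = 0.999); edgeR and DESeq2 each called 0 genes of the table, with 54 and 126 at an unadjusted p under 0.05. The libraries that share barcodes gave -1.03 and the others -0.89, and over 16 alternatives it ran from -1.12 to -0.76. Because these sums mix cell types, fewer cells of a type and less RNA per cell cannot be told apart, and the endothelial share of cells given above differed widely. In cells outside the endothelial gate Klf2 stood at 612, 240, 43.6 and 93.4 CPM in the controls and at 357, 372, 114 and 148 CPM in the HFHC libraries, where the diets overlapped.

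Klf4 values in the same sums overlapped between the diets. It stood at 194, 45.0, 52.6 and 179 CPM in the controls and 69.1, 47.3, 9.53 and 31.5 CPM in the HFHC libraries (log2 difference -1.57, SE 0.64, edgeR adjusted p = 0.999). Timp3 ranged from 135 to 991 CPM in the controls and from 8.23 to 389 CPM in the HFHC libraries (-1.17, SE 0.89). Edn1 (0.51, SE 1.07), Ednrb (0.06, SE 1.33), Piezo1 (0.24, SE 0.82) and Nos3 (-0.98, SE 1.00) had standard errors larger than their differences. Of the lists, 0 genes were called: flow-induced targets had 13 of 17 negative values (median -0.49), disturbed flow 8 of 9 positive values (median 1.01, with the chemokine Ccl2 at 3.80), and immediate early genes 12 of 18 positive values (median 0.26), beside a median of 0.06 over all genes.

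**Figure D4:**
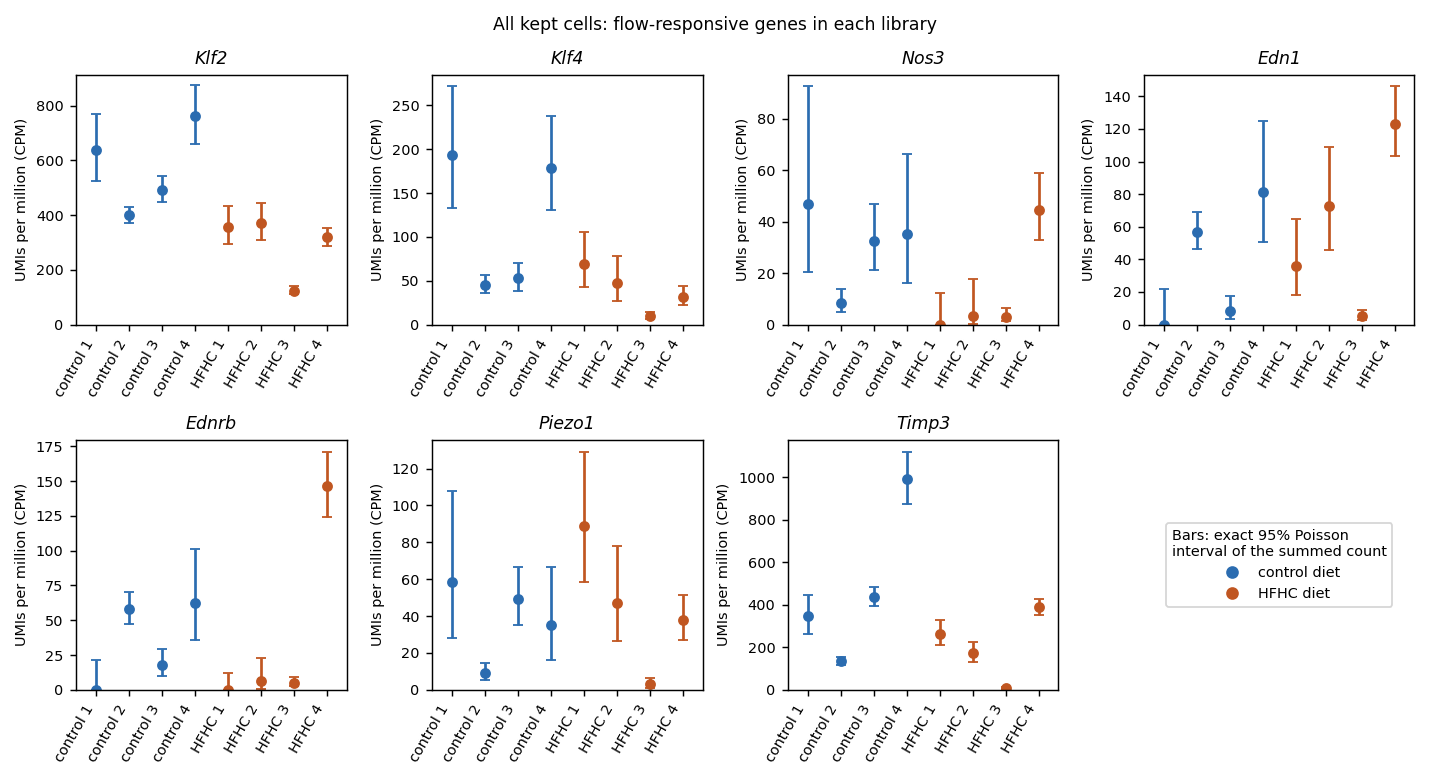
Level (CPM, linear axes from 0) of each gene summed over all kept cells of each of the 8 libraries, control in blue and HFHC in orange; bars are exact 95% Poisson intervals. For Klf2 the 4 HFHC libraries (124 to 372 CPM) lie below the 4 controls (400 to 762 CPM), while the other genes overlap.

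Klf2 was not confined to endothelium, whereas 276 of 308 Edn1, 294 of 306 Ednrb and 103 of 115 Nos3 counts lay in the endothelial gate, beside 1355 of 2286 for Klf2. That gate held 2416532 of the 7049325 UMIs of all kept cells. Cells of a gate came from different libraries, so levels added up over libraries also carry which library supplied a gate, and their order is a description. Over all libraries, Klf2 was highest in the neutrophil (1694 CPM, 34 cells), vascular (1670) and B cell (1669, 60 cells) gates, whose intervals met. Lymphatic (945), mesothelial (816) and stellate (695, 10 cells) gates followed with intervals that also met their neighbours, and at the low end stood cholangiocytes (59.8) and hepatocytes (9.76). Between them lay T and NK cells (486), sinusoidal cells (442), monocytes (312) and Kupffer cells (287). No order is given among these 4, since 70 of the 85 T and NK cells came from HFHC 3, and sinusoidal Klf2 ran from 269 to 960 CPM over 5 libraries. In lymphocytes KLF2 is known for keeping resting cells in circulation. Klf4 led in stellate (361 CPM, 13 counts), lymphatic (333), vascular (234) and mesothelial (162) gates, whose neighbouring intervals met, and had 47.3 CPM in sinusoidal cells. In neutrophils, high in Klf2, Klf4 had 0 counts, with an interval up to 88.0 CPM that takes in the sinusoidal level.

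The other genes had other orders over the gates. The 35 endothelial cells without a subgate, 19 of them from HFHC 4, are left out of the orders below. They stood at 780 CPM for Ednrb (40 counts) and 78.0 CPM for Nos3 (4 counts), first for both, with intervals that met the next gate. For Edn1 they stood second at 332 CPM (17 counts), and for Timp3 at 644 CPM. Nos3 stood at 52.5, 44.5 and 41.0 CPM in lymphatic, vascular and sinusoidal cells, with intervals that met. It had 0 counts in the B cell, mesothelial and cholangiocyte gates, and in the neutrophil gate, where the interval reached 88.0 CPM. Edn1 stood at 657 CPM in vascular and 67.6 CPM in sinusoidal cells, and the cholangiocyte gate followed at 49.1 CPM (23 counts). Ednrb stood at 607 CPM in vascular cells, 167 CPM in 10 stellate cells (6 counts), 78.8 CPM in lymphatic and 65.7 CPM in sinusoidal cells. Piezo1 was highest in the mesothelial gate at 99.7 CPM (65.7 to 145), with 55.6 CPM in stellate and 48.3 CPM in sinusoidal cells. Timp3 was highest in lymphatic cells at 1497 CPM, all from control 4, ahead of the vascular (640), stellate (500), sinusoidal (468) and mesothelial (362) gates. The order of vascular and sinusoidal cells turned within libraries, where sinusoidal Timp3 was above vascular in control 2 (1027 against 689 CPM) and control 4 (849 against 611 CPM).

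**Figure D5:**
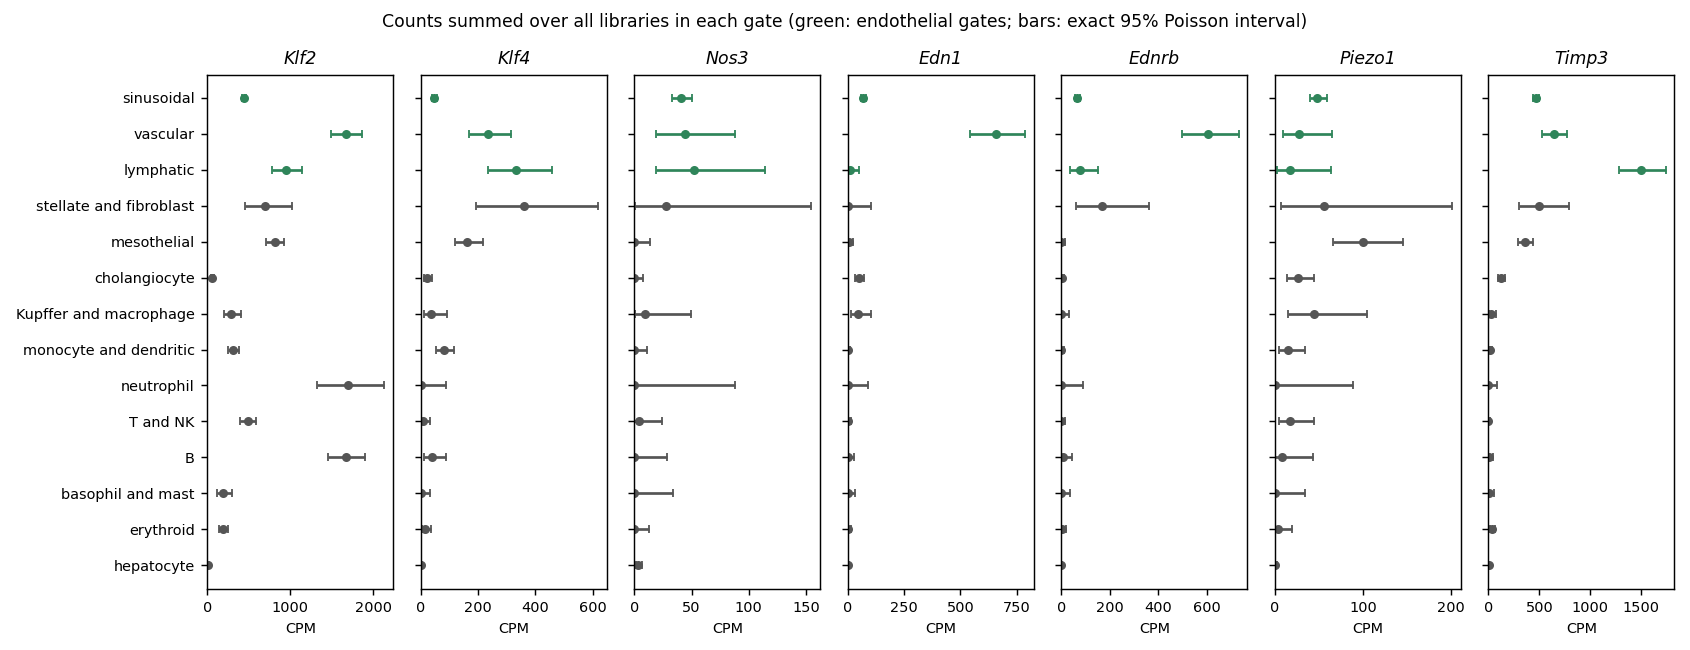
Level (CPM, linear axes from 0, counts summed over all libraries) of each gene in 14 marker gates, endothelial gates in green and others in grey; bars are exact 95% Poisson intervals. Klf2 stands at 1669 to 1694 CPM in vascular, neutrophil and B cells, while Edn1 and Ednrb stand out in the vascular gate and Timp3 in the lymphatic gate. Endothelial cells without a subgate are not drawn.

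A test within 6 libraries that held at least 10 cells of both kinds set endothelial against other cells. Klf2 was higher in endothelial cells by 1.96 on the log2 scale (SE 0.45, edgeR adjusted p = 0.0113) and Timp3 by 3.22 (SE 0.85, edgeR adjusted p = 0.0250), where 14.1% of 2288 genes were called higher and the other 5 genes did not pass the filter. Without control 2, neither was called (edgeR adjusted p = 0.0539 and 0.0967), nor was either with 3 endothelial markers required (0.0595 for Klf2). Timp3 was also not called without control 4 (edgeR adjusted p = 0.0529) or with classes from clusters (0.0565). With at least 20 cells, Nos3 alone of the 7 genes was called (3.41, edgeR adjusted p = 0.0457). The cells outside the endothelial gate of control 2 included 596 hepatocytes. In control 3 and HFHC 4 such cells numbered 20 and 19, with a median of 337.5 and 594 UMIs. Of these, 16 in each library fell in no gate.

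Lymphatic cells, found in control 4 alone, had a pattern of their own among the endothelial gates, given here without a test. Against the 38 sinusoidal cells of that library, the 32 lymphatic cells had a Klf4 ratio of 12.9 (3.34 to 111, 38 against 2 counts), 333 against 25.7 CPM. Timp3 had a ratio of 1.76 (1.32 to 2.38), 1497 against 849 CPM, and the interval of Klf2 (0.927 to 1.81) included 1. Edn1 had 1 count in lymphatic and 15 counts in the 4 vascular cells of control 4, and lymphatic Klf2 was 0.417 (0.270 to 0.666) of the vascular level. Immediate early genes summed to 6364 CPM in lymphatic and 1248 CPM in sinusoidal cells of that library, and their part in the Klf4 ratio was not tested.

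Levels of the 7 genes were also set against those of 3022 genes over 27 sums of library and gate. These sums share libraries and depth, so Spearman coefficients are a description. Klf2 was most like Mef2a (0.72), a MEF2 factor, Spag9 (0.70) and Tgfbr2 (0.69). Klf4 was most like Laptm4a (0.82), Nos3 like Bvht (0.84), Edn1 like Prex2 (0.83), Piezo1 like Tns3 (0.86) and Timp3 like Cavin2 (0.94). Ednrb was most like Cdh13 (0.90), Rsu1 (0.84) and Ly6c1 (0.84). Cdh13 was also among the pericentral markers used above, although Ednrb lay on the periportal side, and this was not tested further. Among the 7, Edn1 and Ednrb had a coefficient of 0.80, Klf4 and Timp3 of 0.72, and Klf2 and Klf4 of 0.54.

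Across single cells, Edn1 and Ednrb did not mark the same cells in both gates. In sinusoidal cells of control 2, Ednrb was found in 40% of 10 cells with Edn1 and 10.9% of those without, whereas in vascular cells it was found in 33.3% of 12 cells with Edn1 and 83.3% of 6 without. In vascular cells of HFHC 4 the shares were 46.2% and 57.1%, and in its 544 sinusoidal cells 14.3% and 7.37%. Cells with Edn1 were deeper in each of these sets. In control 2 their median was 3575 against 1894 UMIs in sinusoidal and 4155 against 2572.5 in vascular cells. Klf4 was found in 10.9% of sinusoidal cells with Klf2 and 3.55% of those without in control 3, and in 9.74% and 2.82% in HFHC 4. In control 2 both shares were 23.1%, and in lymphatic cells of control 4 they were 42.1% and 53.8%. Cells with Klf2 were also deeper in these 4 sets, with a median of 1650 against 1339 UMIs in control 3 and 1820 against 1590 in HFHC 4, and these shares carry no test.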

How the data were processed

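Raw UMI counts per gene and cell of 8 libraries were deposited by the authors, made with Cell Ranger 3.0.1 and Seurat on mm10 per the submitters' processing notes; neither the version of Seurat nor the gene annotation is stated in those notes. All 3416 columns were mapped to libraries by name. Each barcode was kept where it had most UMIs. No doublet caller was run. Cells with under 5% hepatocyte-marker UMIs and at least 2 of 12 endothelial markers, the highest share over all lineage lists, formed the endothelial gate, and the sinusoidal, vascular or lymphatic list with the largest detected share gave the gate within it. Sums per library and gate of at least 10 cells entered edgeR 4.0.16 in R 4.3.3 (TMM, filterByExpr, robust quasi-likelihood) with Benjamini-Hochberg adjustment over all genes tested and a threshold of 0.05; the SE is the absolute log2 change divided by the root of F. Where 1 HFHC library remains, it is assumed to vary like the controls. DESeq2 1.42.0, other filters, markers and libraries were alternatives, and clusters (scanpy 1.11.5, leidenalg 0.10.2, Python 3.11.15) left out the 7 genes. Intervals are exact Poisson, conditional or Clopper-Pearson at 95% (scipy 1.17.1), cover counting error only, and a count of 0 allows 3 counts. The labels name 1 animal per library. Scripts were tested on simulated data. The 7 genes, the lists and the tests were chosen with earlier results of these data known. Further named genes are at most 3 per list and comparison, those with the smallest adjusted p, and the 3 most alike by Spearman coefficient among genes of at least 50 CPM.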

Additional observations from a re-analysis of the deposited data

Results flagged for a closer look

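Of 28 groups of 4 libraries tested with a Dixon criterion (gap over range above the 95% critical value), 4 held a library apart from the rest, where chance gives about 1 in 20 groups. Edn1 in the sinusoidal gate was 324 CPM in control 2, a gap of 0.841 of the range. Nos3 in the endothelial gate was 137 CPM in control 1 (0.855). Nos3 and Ednrb summed over all cells were 44.5 CPM (0.929) and 146 CPM (0.957) in HFHC 4, the HFHC library with the largest share of endothelial cells. Within-library ratios took opposite directions in 3 cases, and none of these differences was tested. The vascular to sinusoidal ratio was 0.257 in control 2 and 1.34 in HFHC 4 for Nos3, from 1 and 4 vascular counts. It was 0.670 and 1.59 for Timp3, with intervals on either side of 1. For Nos3 the ratio of capillary-marked to other sinusoidal cells was 1.20 in control 3, from 1 count, and 0.681 in HFHC 4.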

How the results depend on the processing

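In the sinusoidal gate, 14 genes were called, against 46 with DESeq2, which also called 1 of the 7 genes (Klf2), 6 without a filter on low counts, 2 with barcode copies kept, 9 with a hepatocyte limit of 2%, 8 within the libraries that do not share barcodes, 4 without capillary-marked cells and 9 to 20 with a control library left out (9 without control 2). In the endothelial gate, 2 genes were called, against 9 without a filter, 1 with barcode copies kept, 1 with classes from clusters, 1 with at least 20 cells, 12 within the barcode-sharing libraries, 5 within the others and 1 to 5 with a library left out (1 without control 1, HFHC 3 or HFHC 4, 4 without control 2, 5 without control 3). In all cells, 0 were called, against 1 within the libraries that do not share barcodes. Between vascular and sinusoidal cells, 216 of 1969 genes and 4 of the 7 were called. DESeq2 called 58 of 1969, and 86 of 1923 were called with at least 500 genes per cell. Without the library block 78 of 1969 genes and 1 of the 7 (Ednrb) were called. Timp3 changed direction there with classes from clusters, to 0.77 (edgeR adjusted p = 0.00246). Between pericentral and periportal cells, 34 of 2291 genes and 0 of the 7 were called, against 15 genes with DESeq2, 19 with at least 20 cells, 12 without the library block and 0 to 25 with a library left out (19 without control 2, 0 without HFHC 4). There, 1 of the 7 was called without a filter (Ednrb, lower, 11986 tested) and without control 3 (Ednrb, lower, 1434 tested). With classes from clusters 1 was called too (Klf2, higher, 0.89, edgeR adjusted p = 0.0134, 2663 tested). Between endothelial and other cells, 459 of 2288 genes and 2 of the 7 were called. Without a filter 2113 of 16822 genes and 6 of the 7 were called, with 3 endothelial markers 292 of 2324 and 0, and with classes from clusters 76 of 3016 and 1 (Klf2). With at least 20 cells (6348 tested) 1 of the 7 was called (Nos3), and without the library block (2288 tested) 1 (Timp3). With a library left out, 105 to 557 genes and 0 to 4 of the 7 were called. These were 105 of 1308 and 0 without control 2, 4 of the 7 without control 1 (3019 tested) or control 3 (2309 tested), and 1 (Klf2) without control 4 (2602 tested). The cause of these shifts was not tested.

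Replicate numbers are shared by the diets in the labels. Deviations of same-numbered libraries had no common direction (correlations 0.470, -0.0322, -0.395 and 0.136 for numbers 1 to 4 over 6666 genes). Control 1 and HFHC 1 shared 53 barcodes, and control 2 and HFHC 2 shared 35, as did other pairs of the barcode-sharing libraries. Whether a number marks a pair is therefore not settled. With the number as a replicate block, 13 genes and 0 of the 7 were called in the endothelial gate and 0 in all cells, where Klf2 was -0.51 and -1.0. No paired analysis was possible in the sinusoidal gate because HFHC has 1 library there. For the same reason the sinusoidal diet comparison was not run without HFHC 4 or within the barcode-sharing libraries, and the vascular comparison was not run without control 2, without HFHC 4 or with at least 20 cells. Depth limits these genes: sinusoidal gates of at least 10 cells held 2 to 40 Piezo1 and 3 to 40 Nos3 counts, and Edn1 and Ednrb had 0 in control 1.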
